A study of Homo sapiens with 10 samples.

Results

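Type I and type III interferon genes were followed across 10 RNA-seq libraries of human esophageal squamous cell carcinoma (ESCC) lines. The 5 genes are IFNB1 and IFNK of type I, and IFNL1, IFNL2 and IFNL3 of type III, which some of the tables list under the older names IL29, IL28A and IL28B. They were taken by name from 36546 genes in the tables of one experiment and 22609 in those of the other, and had been chosen for their expression in the vector control cells of KYSE30. That choice used the level of 4 of them. IFNK does not follow it, since it was listed at 0 in that library.

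In the knockdown experiment, KYSE30 and KYSE180 cells infected with lentivirus against IRF1-AS gave 1 library each, and vector control cells of the same lines gave 1 each. IRF1-AS is a long non-coding RNA transcribed antisense to the transcription factor gene IRF1, and the lentivirus was packaged in HEK293T cells. In the interferon experiment, KYSE30, KYSE180 and KYSE450 cells were given interferon beta (IFN-β) at 1000 IU/ml for 72 h, and untreated cells of the same lines received PBS. No further treatment is labelled. The lines are the replicates, so each line has 1 library in each arm, a difference within a line has no test, and p-values measure the spread between lines.

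Interferons are secreted proteins that infected or stressed cells release. IRF and NF-kB factors, activated by sensors of foreign RNA and DNA, switch their genes on, and IFNB1 is the standard example. Type I interferons act on the IFNAR1 and IFNAR2 receptor, and type III interferons on the IFNLR1 and IL10RB receptor, which is found mainly on epithelial cells such as those of the esophagus. Both receptors signal through JAK kinases to STAT factors and IRF9 and so raise interferon-stimulated genes. IFNK is a type I interferon known from keratinocytes.

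IFNB1 lies at chr9:21077105-21077963 on the minus strand (GRCh38, GENCODE release 29). IFNK lies at chr9:27524314-27526498 on the plus strand, inside MOB3B, which is transcribed from the minus strand. The lambda genes lie together on chromosome 19, with IFNL3 at chr19:39243553-39245129 on the minus strand, IFNL2 at chr19:39268514-39270092 on the plus strand and IFNL1 at chr19:39296325-39298673 on the plus strand. The promoters of the 4 members that were expressed are shown because these members were above 1 FPKM together in KYSE30 in the knockdown experiment (RefSeq, GRCh38.p14). Each runs 5′ to 3′ on the gene's own strand and ends before the most upstream annotated start. They are chr9:21077964-21078192 for IFNB1, chr19:39296157-39296324 for IFNL1, chr19:39268146-39268395 for IFNL2 and chr19:39245251-39245500 for IFNL3. Capitals mark matches on either strand to the IRF core AANNGAAA, the tandem IRF motif GAAANNGAAA and the kappaB consensus.
IFNB1: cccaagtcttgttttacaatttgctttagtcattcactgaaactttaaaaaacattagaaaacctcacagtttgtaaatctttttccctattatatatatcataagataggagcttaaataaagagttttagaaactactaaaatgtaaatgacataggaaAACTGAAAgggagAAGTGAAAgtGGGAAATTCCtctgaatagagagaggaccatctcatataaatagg
IFNL1: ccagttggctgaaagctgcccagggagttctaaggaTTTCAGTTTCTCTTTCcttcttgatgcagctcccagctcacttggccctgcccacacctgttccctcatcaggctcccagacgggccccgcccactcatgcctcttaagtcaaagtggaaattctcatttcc
IFNL2: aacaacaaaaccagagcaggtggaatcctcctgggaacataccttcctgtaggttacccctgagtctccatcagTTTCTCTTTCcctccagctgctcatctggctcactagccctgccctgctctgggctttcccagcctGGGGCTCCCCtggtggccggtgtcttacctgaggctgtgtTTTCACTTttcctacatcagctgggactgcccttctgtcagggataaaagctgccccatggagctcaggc
IFNL3: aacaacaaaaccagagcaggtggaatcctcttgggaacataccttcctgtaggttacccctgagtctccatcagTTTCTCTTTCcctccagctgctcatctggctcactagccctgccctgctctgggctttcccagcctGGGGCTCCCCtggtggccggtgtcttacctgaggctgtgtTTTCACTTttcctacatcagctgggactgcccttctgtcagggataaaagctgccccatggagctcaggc

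The IFNB1 window held 2 IRF cores and 1 kappaB match, which lie close together. The IFNL1 window held 2 IRF cores, which overlap 2 overlapping tandem motifs, and no kappaB match. The IFNL2 and IFNL3 windows each held 2 IRF cores, of which 1 overlaps a tandem motif, and 1 kappaB position that matches on both strands. Of 35116 RefSeq promoters cut to 250 bases, 20.3% held the IRF core, 3.02% the tandem motif and 9.96% the kappaB consensus. In windows of 229 bases the shares were 18.8%, 2.71% and 9.16%, and in windows of 168 bases 15.1%, 2.01% and 6.62%. These matches are letters in a window and were not measured as sites.

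IFNL2 and IFNL3 are close copies. Their promoter windows were identical at 249 of 250 positions, and their transcripts at 719 of 734 aligned bases (98%). They shared 220 of the 688 windows of 50 bases that the IFNL2 transcript holds, so reads from one can be counted for the other or be dropped. Their separate levels, and their order against IFNL1, are therefore uncertain. IFNL1 was 79.8% identical to IFNL2 over the aligned bases and shared 0 of 808 such windows with it. IFNK reads that fall on MOB3B cannot be told apart from that gene's unless the counting used strand, and the sources do not state that setting.

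The levels are FPKM, which are fragments scaled by gene length and library size, as the authors deposited them, and they carry no depth. In the interferon experiment FPKM summed to between 1038466 and 1081705 per library, and 11645 to 12699 genes reached 1 FPKM. In the knockdown experiment the sums lay between 399081 and 425340, and 11715 to 12348 genes reached 1 FPKM. The experiments were normalized separately, so levels set side by side across them are on different scales. All 10 squamous and epithelial marker genes reached 1 FPKM in at least 1 library of each experiment, which need not be of KYSE30. Their sums were 287.1 to 8377 FPKM in the interferon experiment and 740.0 to 9164 FPKM in the knockdown experiment. KYSE30 had the low end of both ranges. IRF1-AS, listed as C5orf56, was at 3.04 FPKM in knockdown and 6.86 FPKM in vector control KYSE30, and at 0.948 FPKM in knockdown and 1.08 FPKM in vector control KYSE180. The KYSE180 values differ little at a low level, so there they do not check the label, and directions drawn from KYSE180 are those of the library labelled knockdown.

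IFNL1, IFNL2, IFNL3 and IFNB1 were expressed above 1 FPKM in the knockdown and vector control cells of KYSE30 and stayed under 1 FPKM in the other 8 libraries. In KYSE30 all 4 were lower in IRF1-AS knockdown than in vector control cells, at between 18.9% and 24.4% of the vector control level. The 5 genes together summed to 57.2 FPKM in knockdown and 249.6 FPKM in vector control KYSE30, nearly all of it from the 3 lambda genes. In such bulk RNA, fewer cells that express a gene and less RNA per cell cannot be told apart. Since the members were chosen on the vector control library of this pair, these values are a description with no test.

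IFNL1, which encodes interferon lambda 1, had the highest listed level of the 5, though IFNL2 and IFNL3 may be undercounted where they share sequence. It was at 20.6 FPKM in knockdown and 88.9 FPKM in vector control KYSE30, which is 4.31-fold lower. In KYSE180 it was listed at 0 in knockdown cells and at 0.0531 FPKM in vector control cells. Its level ranked 685 of 22609 genes in the vector control library of KYSE30, where 17260 genes were above 0.

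IFNL2, which encodes interferon lambda 2, was at 16.5 FPKM in knockdown and 77.1 FPKM in vector control KYSE30, a level 4.67-fold lower. It was listed at 0 in both KYSE180 libraries. IFNL3, which encodes interferon lambda 3, was at 18.8 FPKM in knockdown and 76.9 FPKM in vector control KYSE30, a level 4.09-fold lower. It was at 0.0743 FPKM in knockdown and 0.119 FPKM in vector control KYSE180. In the vector control library of KYSE30, IFNL2 and IFNL3 ranked 826 and 829 by level, below IFNL1. With 1 library per arm, none of these neighbours in the order can be shown to differ.

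The makeup of the lambda RNA was much the same in both arms. IFNL1, IFNL2 and IFNL3 held 36.9%, 29.5% and 33.6% of the summed lambda FPKM in knockdown KYSE30, and 36.6%, 31.7% and 31.7% in vector control KYSE30. The sum itself was 55.9 FPKM in knockdown and 242.9 FPKM in vector control KYSE30. In KYSE180 it was 0.0743 FPKM in knockdown and 0.172 FPKM in vector control cells.

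IFNB1, which encodes interferon beta itself, was at 1.26 FPKM in knockdown and 6.68 FPKM in vector control KYSE30, a level 5.29-fold lower. In KYSE180 it was listed at 0 in knockdown cells and at 0.0269 FPKM in vector control cells. Its level in vector control KYSE30 ranked 7423 of 22609 genes, and the lambda sum was 44.2 times the IFNB1 level in knockdown and 36.3 times in vector control KYSE30. IFNK was listed at 0 in all 4 libraries of this experiment. Since it lies inside MOB3B, its reads may not have been counted for it, so the 0 does not show that it was silent.

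**Figure D1:**
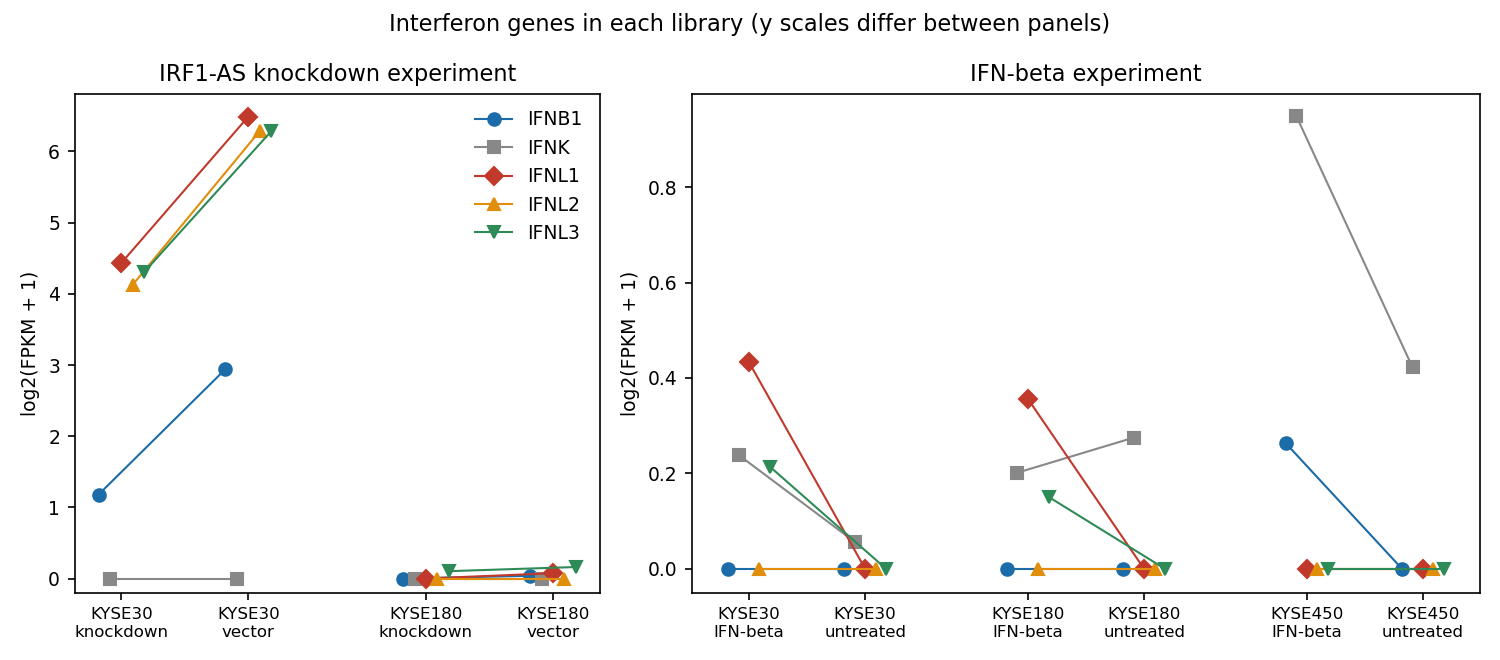
Level of each of the 5 interferon genes as log2(FPKM + 1) in each library, with knockdown left of vector control and IFN-β left of untreated, and lines joining the libraries of 1 cell line. Each point is 1 library. The y axes differ. The lambda genes and IFNB1 are above 1 FPKM only in the KYSE30 pair of the knockdown experiment (20.6 and 88.9 FPKM for IFNL1 in knockdown and vector control). No member reached 1 FPKM in the interferon experiment.

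Differences were taken on the log2(FPKM + 1) scale after scaling libraries to the median ratio over genes, a scale that understates the change of low genes. On it the knockdown minus vector control difference in KYSE30 was -2.17 for IFNL2, -2.07 for IFNL1, -1.99 for IFNL3 and -1.78 for IFNB1. Counted from the lowest of 12813 genes tested, those differences ranked 25, 34, 41 and 72, against a median over all genes of 0.01. All 4 members that passed the filter of at least 1 FPKM in 2 libraries were past 2-fold lower, as were 3.23% of the genes tested, while 1.55% were past 2-fold higher. They passed the filter through the KYSE30 pair alone and were chosen on the level in its vector control library. Their ranks and this count are therefore a description and give no support for an effect. In KYSE180 the 4 differences lay between -0.07 and 0.00. The members were at most 0.119 FPKM there, so on this scale none could be past 2-fold lower. These values therefore do not show whether the members respond in KYSE180. Of all genes tested in KYSE180, 2.42% were past 2-fold lower and 1.35% higher.

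A fit over both lines with limma called 0% of the 12813 genes after Benjamini-Hochberg adjustment at 0.05, with the smallest adjusted p at 0.151 and 824 genes at an unadjusted p under 0.05. With 2 lines it has 1 residual degree of freedom, so it says little about the knockdown. The counts below for the knockdown are therefore descriptions of each line. They stand beside the shares of all genes tested, of which 3.23% were past 2-fold lower and 1.55% higher in KYSE30. In KYSE180 those shares were 2.42% and 1.35%.

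Of the 17 other interferon genes in the list, 17 were listed in the knockdown tables and 16 in the interferon tables, and 0 passed the filter in either. The exceptions to levels under 1 FPKM were IFNL4 and IFNE. IFNL4, a further lambda gene between IFNL3 and IFNL2, was at 0.601 FPKM in knockdown and 2.57 FPKM in vector control KYSE30, and was listed at 0 in both KYSE180 libraries. IFNE, a type I interferon of epithelia that is expressed without infection, was at 0.234 FPKM in knockdown and 0.380 FPKM in vector control KYSE30, and at 1.07 FPKM in knockdown and 0.789 FPKM in vector control KYSE180. In the interferon experiment it was at 0.33 FPKM in treated and 0.29 FPKM in untreated KYSE30, at 0.38 FPKM in treated and 0.61 FPKM in untreated KYSE180, and at 2.12 FPKM in treated and 1.21 FPKM in untreated KYSE450. In the knockdown experiment IFNE thus stood higher in KYSE180 than in KYSE30, unlike IFNB1 and the lambda genes. IFNG, the type II interferon, was listed at 0 in all 4 libraries.

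Upstream, the kinases and factors that switch interferon genes on (inducers) were looked at in the same KYSE30 pair. IRF1, a transcription factor that binds interferon promoters, was at 5.88 FPKM in knockdown and 31.1 FPKM in vector control KYSE30, and at 1.204 FPKM in knockdown and 1.83 FPKM in vector control KYSE180. Of the 13 inducers tested, 1, IRF1 itself, was past 2-fold lower and 0 were past 2-fold higher in KYSE30, with a median difference of 0.03. Of all genes tested, 3.23% were past 2-fold lower there. The part of IRF1 in the members' difference was not tested, and IRF1 was itself higher in IFN-β-treated cells, as given below. IRF3, the factor that first activates IFNB1 after infection, was at 45.4 FPKM in knockdown and 44.3 FPKM in vector control KYSE30. RELA, a subunit of NF-kB, was at 39.0 FPKM in knockdown and 40.6 FPKM in vector control KYSE30. IKBKE, a kinase of the list, was at 6.65 FPKM in knockdown and 11.6 FPKM in vector control KYSE30. In KYSE180, IKBKE was at 5.65 FPKM in knockdown and 10.7 FPKM in vector control cells. Of the 13 inducers, 6 were lower in KYSE30 and 9 in KYSE180. Of all 12813 genes tested, 6127 were lower in KYSE30 and 6528 in KYSE180.

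Of 14 sensors and adaptors tested, 2 were past 2-fold lower and 0 past 2-fold higher in KYSE30, with a median difference of -0.25. The 2 were the RNA sensors IFIH1 and DHX58. IFIH1 was at 9.67 FPKM in knockdown and 21.5 FPKM in vector control KYSE30, and DHX58 at 2.73 FPKM and 7.77 FPKM. In KYSE180, IFIH1 was at 2.58 FPKM in knockdown and 3.70 FPKM in vector control cells, and DHX58 at 4.26 FPKM and 5.74 FPKM. Of the 14, 11 were lower in KYSE30 and 10 in KYSE180, beside 6127 and 6528 of all 12813 genes tested. TMEM173 (STING), the adaptor for cytosolic DNA, was at 29.7 FPKM in knockdown and 48.1 FPKM in vector control KYSE30. TICAM1, the adaptor of TLR3, was at 19.5 FPKM in knockdown and 24.9 FPKM in vector control KYSE30. MAVS, the adaptor of the cytosolic RNA sensors, was at 18.3 FPKM in knockdown and 19.1 FPKM in vector control KYSE30. Of these 3 adaptors, TMEM173 had the widest gap between the arms.

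Cytokine and feedback genes known to be induced by the same IRF and NF-kB factors were lower together in KYSE30. Of 20 listed, 11 were tested. All 11 were lower in knockdown than in vector control KYSE30, 7 of them past 2-fold, with a median difference of -1.47. Of all 12813 genes tested, 6127 were lower in KYSE30 and 3.23% were past 2-fold lower. In KYSE180, 6 of 11 were lower, 0 past 2-fold, with a median of -0.36. That count is near the share of all genes, of which 6528 of 12813 were lower, while the median over all genes in KYSE180 was -0.01. CCL5 and CXCL10 passed the filter through the KYSE30 pair alone. CCL5, a chemokine for T cells, was at 42.2 FPKM in knockdown and 157.7 FPKM in vector control KYSE30, and at 0.197 FPKM in knockdown and 0.115 FPKM in vector control KYSE180. NFKBIA, the inhibitor that NF-kB itself induces, was at 49.6 FPKM in knockdown and 112.7 FPKM in vector control KYSE30, and at 44.5 FPKM in knockdown and 78.1 FPKM in vector control KYSE180. Unlike CCL5, NFKBIA stood high in both lines and was lower in knockdown in both. CXCL8 (IL8), a chemokine for neutrophils, was at 7.60 FPKM in knockdown and 22.7 FPKM in vector control KYSE30, and at 10.5 FPKM in knockdown and 15.5 FPKM in vector control KYSE180.

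**Figure D2:**
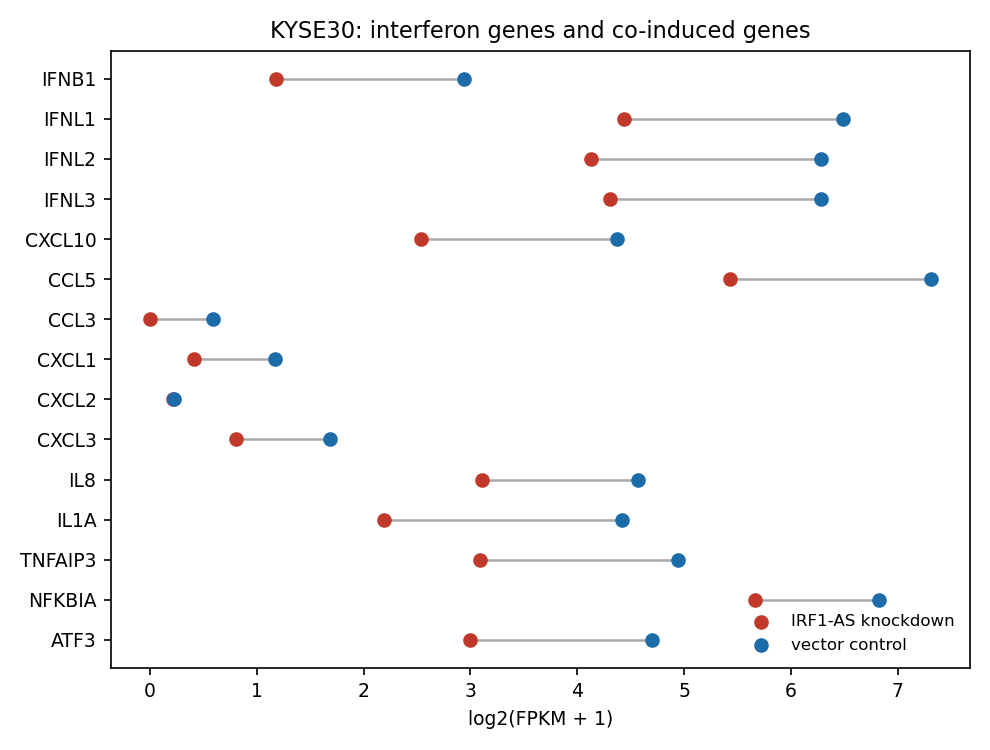
Levels in KYSE30 as log2(FPKM + 1) for the 4 expressed interferon genes and the 11 co-induced genes tested, with 1 library per point and a line joining IRF1-AS knockdown to vector control. Each knockdown point lies left of its vector control point, by little for CXCL2 and by most for IL1A (3.56 FPKM in knockdown and 20.3 FPKM in vector control).

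Interferon-stimulated genes, the targets of both interferon types, were mostly lower in the libraries labelled knockdown of both lines. In KYSE30, 26 of the 26 tested were lower, 8 past 2-fold, with a median difference of -0.94, and 6127 of all 12813 genes tested were lower. In KYSE180, where the members were at or near 0, 24 of 26 were lower, 5 past 2-fold, with a median of -0.48, and 6528 of all 12813 genes were lower. ISG15, a ubiquitin-like protein, was at 345.8 FPKM in knockdown and 1073 FPKM in vector control KYSE30, and at 23.7 FPKM in knockdown and 32.6 FPKM in vector control KYSE180. IFIT2, which binds foreign RNA, was at 65.0 FPKM in knockdown and 179.1 FPKM in vector control KYSE30, and at 1.19 FPKM in knockdown and 2.01 FPKM in vector control KYSE180. BST2, which tethers budding viruses, had its higher levels in KYSE180, at 72.5 FPKM in knockdown and 102.2 FPKM in vector control cells, and was at 6.33 FPKM in knockdown and 15.2 FPKM in vector control KYSE30.

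**Figure D3:**
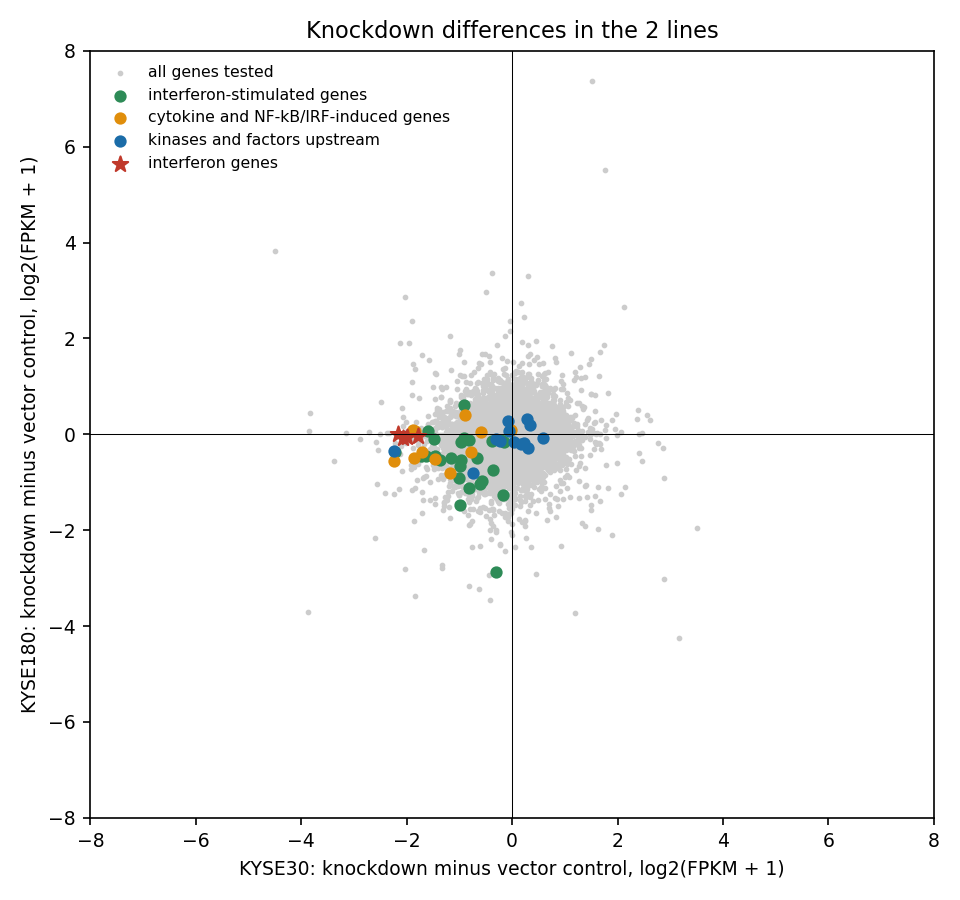
Knockdown minus vector control difference in log2(FPKM + 1) for every gene tested, KYSE30 on the x axis and KYSE180 on the y axis, with 1 point per gene and 1 library per arm. The 4 interferon genes (stars) lie at -1.78 to -2.17 in KYSE30. They lie at about 0 in KYSE180, where their levels were at or near 0 in both arms. Interferon-stimulated genes lie below 0 in KYSE30 and mostly in KYSE180 too.

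Receptor genes were present in both lines. IFNLR1, the chain that binds lambda interferons, was at 1.52 FPKM in knockdown and 2.01 FPKM in vector control KYSE30, and at 4.38 FPKM in knockdown and 4.83 FPKM in vector control KYSE180. IL10RB, its partner chain, was at 7.48 FPKM in knockdown and 10.9 FPKM in vector control KYSE30. IFNAR1 was at 5.87 FPKM in knockdown and 5.77 FPKM in vector control KYSE30, and IFNAR2 at 3.56 FPKM in knockdown and 6.24 FPKM in vector control KYSE30. In KYSE30, 0 of the 4 receptor chains and 0 of 5 signalling genes were past 2-fold in either direction. IRF9, a DNA-binding partner of STAT factors, was at 6.83 FPKM in knockdown and 25.5 FPKM in vector control KYSE180, and at 3.004 FPKM in knockdown and 4.33 FPKM in vector control KYSE30.

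Of 11 negative regulators tested, 0 were past 2-fold in KYSE30, with a median of -0.33, and 1 was past 2-fold lower in KYSE180. That gene was SOCS3, an inhibitor of JAK signalling, at 6.34 FPKM in knockdown and 16.1 FPKM in vector control KYSE180.

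In KYSE30 the squamous list summed to 740.0 FPKM in knockdown and 806.8 FPKM in vector control cells, and lists of other cell types summed to less. Below, a marker counts as reaching 1 FPKM if it did so in any library of the knockdown experiment, not in KYSE30 alone. Of 8 leukocyte genes 1, CD68, reached 1 FPKM in the knockdown libraries, MS4A1, a B cell marker, was at 0 in all of them, and the summed level was 2.75 FPKM in knockdown and 2.04 FPKM in vector control KYSE30. Of 6 genes of plasmacytoid dendritic cells, a cell type known for interferon secretion, the defining CLEC4C and LILRA4 were at 0 in all 10 libraries, 2 of the 6 reached 1 FPKM, and the sum was 3.80 FPKM in knockdown and 3.19 FPKM in vector control KYSE30. None of 4 endothelial genes reached 1 FPKM in this experiment, with sums of 0.0832 FPKM in knockdown and 0.178 FPKM in vector control KYSE30. The summed level of the 6 HEK293T markers, of which 3 reached 1 FPKM and SOX11 was at 0, was 18.8 FPKM in knockdown and 26.8 FPKM in vector control KYSE30, and 7.73 FPKM in knockdown and 16.2 FPKM in vector control KYSE180. In the interferon experiment, for which no lentivirus is labelled, that sum was 32.3 FPKM in treated and 28.75 FPKM in untreated KYSE30. The summed fibroblast level was 1.73 FPKM in knockdown and 4.61 FPKM in vector control KYSE30, with 1 of 6 genes at 1 FPKM. The part of the fibroblast values in the members' difference was not tested.

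In the interferon experiment, which the choice of members did not use, the 5 genes stayed under 1 FPKM in all 6 libraries. IFNL1 was at 0.35 FPKM in IFN-β-treated KYSE30, 0.28 FPKM in treated KYSE180 and 0 in treated KYSE450, and was listed at 0 in all 3 untreated libraries. IFNL3 was at 0.16 FPKM in treated KYSE30, 0.11 FPKM in treated KYSE180 and 0 in treated KYSE450, and was likewise listed at 0 in all 3 untreated libraries. Both lambda genes were therefore above 0 in treated cells of 2 of the 3 lines only. IFNL2 was listed at 0 in all 6 libraries.

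IFNB1 was at 0.20 FPKM in treated KYSE450 and listed at 0 in the other 5 libraries. IFNK, the member with 0 in every knockdown library, was above 0 in all 6. It was at 0.18 FPKM in treated and 0.04 FPKM in untreated KYSE30, at 0.15 FPKM in treated and 0.21 FPKM in untreated KYSE180, and at 0.93 FPKM in treated and 0.34 FPKM in untreated KYSE450. MOB3B, which overlaps it, was above IFNK in each of these libraries.

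None of the 5 passed the filter of 1 FPKM in 3 libraries, where limma called 0.402% of 12429 genes, 50 higher and 0 lower in treated cells. With FPKM as deposited, 193 were called higher and 44 lower. Without a filter 0.055% of 23648 genes were called, and 0 of the 4 members with a value above 0 were among them. The treated minus untreated log2 fold change was 0.26 ± 0.09 for IFNL1 and 0.12 ± 0.05 for IFNL3 (SE). It was 0.16 ± 0.11 for IFNK and 0.08 ± 0.06 for IFNB1 (SE). The limma adjusted p was 0.768 for each of the 4, and before adjustment IFNL1 alone was under 0.05. No member therefore changed past the threshold, and at these levels, of which the read support is unknown, a small rise could not have been detected. An exact permutation test of 3 pairs cannot go below a two-sided p of 0.25.

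The targets of interferon rose in the same libraries. Of 30 interferon-stimulated genes tested, 13 were called, all higher, with a median log2 fold change of 4.02 against -0.01 over all genes tested. IFI6, a mitochondrial protein, was at 2322 FPKM in treated and 6.86 FPKM in untreated KYSE30, at 2560 FPKM in treated and 31.4 FPKM in untreated KYSE180, and at 2195 FPKM in treated and 6.68 FPKM in untreated KYSE450 (log2 fold change 7.42 ± 0.37, SE, limma adjusted p = 0.00418). ISG15 rose by 5.60 ± 0.17 on the same scale (SE, limma adjusted p = 7.57e-05). IFITM1 and IFITM3, membrane proteins that block virus entry, had fold changes of 5.79 ± 1.28 (limma adjusted p = 0.443) and 3.63 ± 0.44 (limma adjusted p = 0.0834) and were not called.

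**Figure D4:**
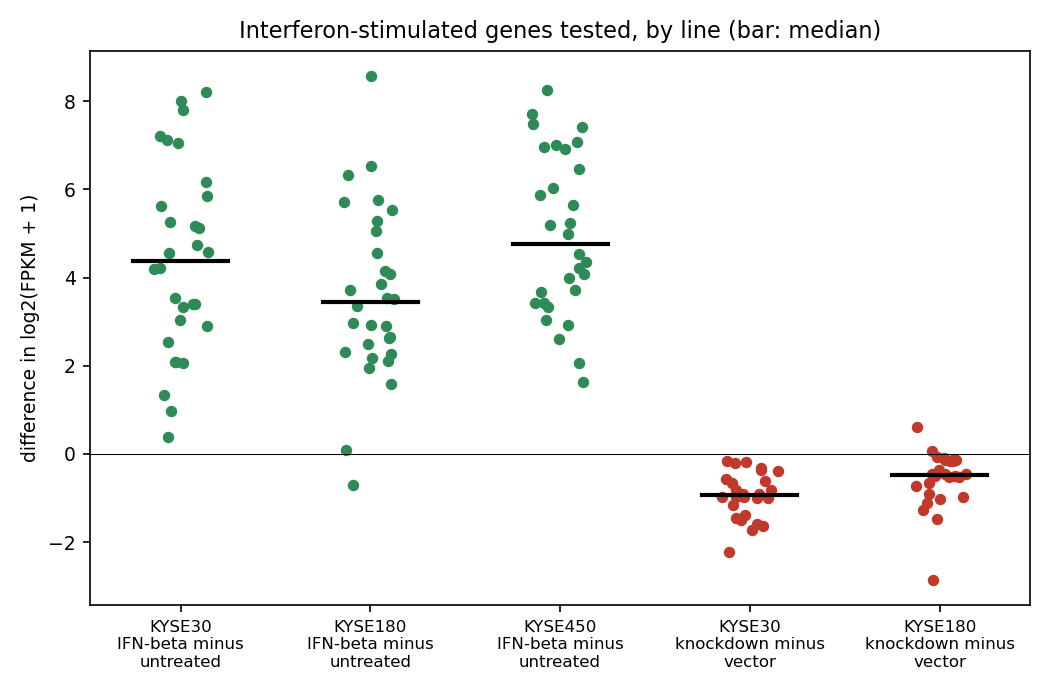
Differences in log2(FPKM + 1) of the interferon-stimulated genes tested, 30 in the interferon experiment and 26 in the knockdown experiment, by cell line, with 1 point per gene and a bar at the median. The medians are 4.39, 3.44 and 4.77 for IFN-β minus untreated in KYSE30, KYSE180 and KYSE450, and -0.94 and -0.48 for knockdown minus vector control in KYSE30 and KYSE180.

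Single genes of the upstream and regulatory lists were called. Of 13 inducers 1 rose, IRF1, at 19.8 FPKM in treated and 7.31 FPKM in untreated KYSE30, 10.5 FPKM in treated and 3.35 FPKM in untreated KYSE180, and 6.01 FPKM in treated and 1.44 FPKM in untreated KYSE450 (log2 fold change 1.30 ± 0.13, SE, limma adjusted p = 0.0162). Of 13 sensors 1 rose, DHX58, a cytosolic RNA sensor of the RIG-I family (1.94 ± 0.23, SE, limma adjusted p = 0.0378). At an unadjusted p under 0.05, limma had 8 of the 13 sensors higher and 1 lower, with a list median of 1.15. The sensors with the highest mean levels were IFI16, a DNA sensor, at 2.58 ± 0.41 (SE, limma adjusted p = 0.184), DDX58 (RIG-I) at 3.74 ± 0.80 (SE, limma adjusted p = 0.412), TRIM25, which activates RIG-I, at 1.22 ± 0.29 (SE, limma adjusted p = 0.349), and IFIH1 (MDA5) at 3.12 ± 0.57 (SE, limma adjusted p = 0.295). Of 11 negative regulators 1 rose, TRIM21, a ubiquitin ligase (1.99 ± 0.23, SE, limma adjusted p = 0.0434), and 4 were higher at an unadjusted p under 0.05. Of 4 receptor chains and of 5 co-induced cytokine and feedback genes 0 were called, with 0 and 3 of them at an unadjusted p under 0.05 by limma. With the FPKM as deposited, 6 of the sensors, 3 of the co-induced genes and 3 of the negative regulators were called.

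Levels in IFN-β-treated KYSE30 and in vector control KYSE30, which are on separate scales, are set side by side for 4 targets and CCL5. IFIT2 was at 48.1 FPKM in treated KYSE30 and at 179.1 FPKM in the vector control. ISG15 was at 1686 FPKM in treated KYSE30 and at 1073 FPKM in the vector control. BST2 was at 246.6 FPKM in treated KYSE30 and at 15.2 FPKM in the vector control. IFITM1 was at 939.4 FPKM in treated KYSE30 and at 31.0 FPKM in the vector control. CCL5, which accompanied the lambda genes in the vector control at 157.7 FPKM, was at 2.07 FPKM in treated KYSE30.

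Among the 8 genes whose profile over the 10 libraries was most like that of the members were CCL22 (Pearson r = 0.997), CCL5 (0.980), SP8 (0.979), CXCL10 (0.978), CBFA2T3 (0.974), MUC16 (0.965) and C5AR1 (0.965). Each r is between log2(FPKM + 1) of the gene and the mean of the members, less the mean within each experiment, and 10681 genes were compared. The profile is set by the 2 KYSE30 libraries of the knockdown experiment, so any gene high in both of them scores well. CCL22, a chemokine, was at 4.06 FPKM in knockdown and 10.5 FPKM in vector control KYSE30 and at most 0.13 FPKM elsewhere. CXCL10, a chemokine that interferons induce, was at 4.82 FPKM in knockdown and 19.7 FPKM in vector control KYSE30. SP8, a zinc finger transcription factor, was at 8.34 FPKM in knockdown and 14.7 FPKM in vector control KYSE30. MUC16, a cell surface mucin, was at 3.33 FPKM in knockdown and 13.8 FPKM in vector control KYSE30. CXCL10 and MUC16 had the widest gaps between the arms of these 4.

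**Figure D5:**
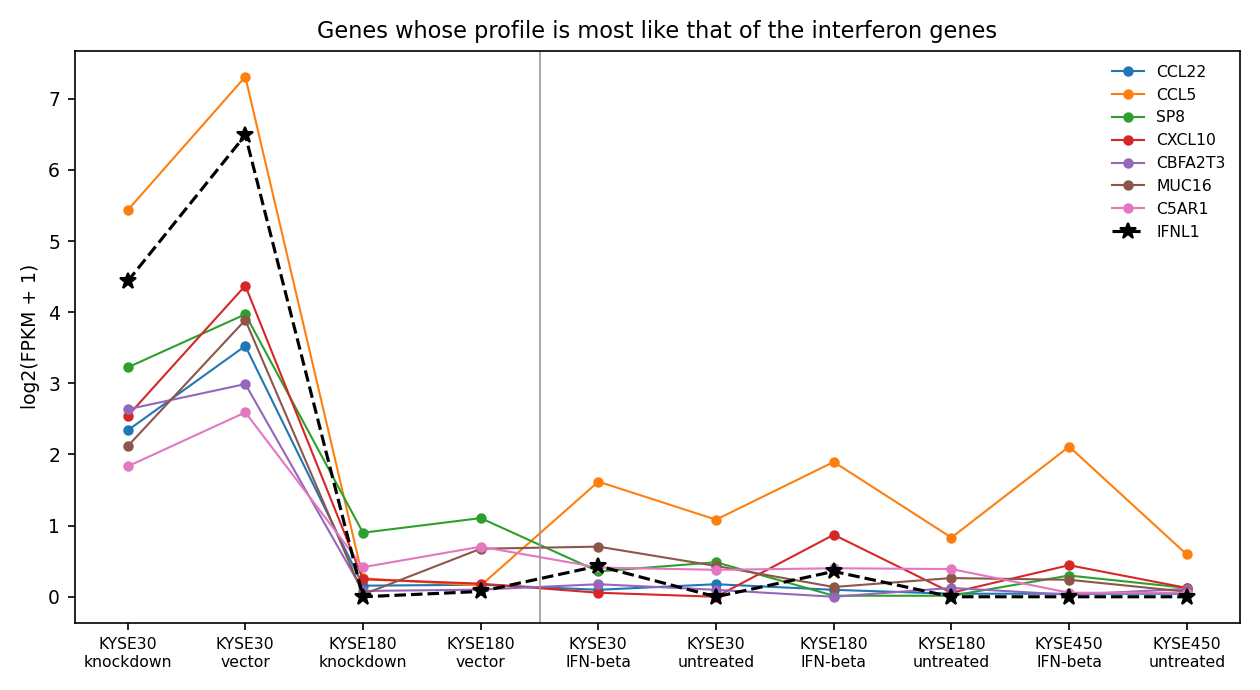
Level as log2(FPKM + 1) of 7 of the genes most like the interferon genes, and of IFNL1 (dashed), in the 4 knockdown-experiment libraries and, right of the grey line, the 6 interferon-experiment libraries, with 1 point per library. All 8 lines peak in vector control KYSE30, with knockdown KYSE30 next, and CCL5 alone is above 1 FPKM in most of the libraries to the right.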

How the data were processed

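Total RNA of 10 libraries had been sequenced. The authors deposited each library as its own table of FPKM, so named in the file headers, and FPKM do not carry depth. TopHat, HTSeq and hg38 are named, without versions, in the submitters' processing notes, and the annotation and strand setting are not stated. In the interferon tables, long non-coding transcripts were summed to 16044 genes beside 20502 named genes. Haplotype copies in the knockdown experiment (946 of them) were merged. In the knockdown experiment the commonest ratio of low values between libraries was at most 1.178. Only 13 to 23 of 555 to 875 genes per pair held it, so it does not fix what 1 read is worth. Whole reads were not recovered, so count tests planned for counts were not run.

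Libraries were scaled by the median of ratios within an experiment, and log2(FPKM + 1) was fitted with limma 3.58.1 (R 4.3.3, statmod 1.5.0; trend and robust options) with the cell line as a block, since both arms came from the same line, and Benjamini-Hochberg adjustment at 0.05 over all genes tested. Genes needed 1 FPKM in 3 libraries of the interferon or 2 of the knockdown experiment. The closing section gives the alternatives.

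Named genes are the members, the 4 genes of each list with the highest mean FPKM in that experiment (all of lists with 5 genes or fewer), IRF1, C5orf56 and the 8 most similar genes. CXCL2, IL1A, DHX58, IFNG, and the neighbours were chosen after their values were seen, as were the levels set side by side across experiments. The same holds for IFIH1 and IKBKE in the knockdown experiment. Some genes that this rule names are not reported here. The members and lists were chosen with earlier results of these data known. Sequences come from RefSeq (GRCh38.p14), and all 5 members matched; transcripts come from GENCODE release 29.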

Additional observations from a re-analysis of the deposited data

Results flagged for a closer look

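The lines of 1 experiment had differences of opposite sign for 17 of the 77 named results checked, all as log2(FPKM + 1) differences. The share of all genes with opposite signs is not given, so this count is not read as an excess, and several of the differences are small. None of these differences between lines was tested, since each line has 1 library per arm.

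For IFN-β minus untreated, IFNK was at -0.06 in KYSE180 and 0.36 in KYSE450. The type I receptor chains behaved alike, with IFNAR1 at -0.31 in KYSE180 and 0.47 in KYSE450, and IFNAR2 at -0.21 in KYSE180 and 0.66 in KYSE450. The kinase genes were JAK1, at -0.39 in KYSE180 and 0.22 in KYSE450, and TBK1, which activates IRF3, at 0.42 in KYSE30 and -0.16 in KYSE180. IRF3 was at 0.36 in KYSE180 and -0.01 in KYSE450, with both positive in the FPKM as deposited (0.33 in KYSE180 and 0.46 in KYSE450). CXCL1 was at -0.26 in KYSE30 and 0.78 in KYSE180, and the phosphatase gene PTPN11 at -0.22 in KYSE180 and 0.24 in KYSE450. KYSE450 libraries had scaling factors of 1.13 in treated and 0.802 in untreated cells.

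For knockdown minus vector control, CCL5 was at -1.89 in KYSE30 and 0.10 in KYSE180, and CXCL10 at -1.85 in KYSE30 and 0.06 in KYSE180. Both were nearly absent in KYSE180. IFNAR2 was at -0.68 in KYSE30 and 0.39 in KYSE180. The phosphatase gene PTPN2 was at 0.11 in KYSE30 and -0.50 in KYSE180. Of the upstream genes, JUN was at 0.31 in KYSE30 and -0.28 in KYSE180, RELA at -0.07 in KYSE30 and 0.29 in KYSE180, and IRF3 at 0.03 in KYSE30 and -0.16 in KYSE180. TRIM25 was at -0.16 in KYSE30 and 0.04 in KYSE180, and MAVS at -0.07 in KYSE30 and 0.19 in KYSE180.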

How the results depend on the processing

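The number of genes limma called in the interferon experiment, 50, was 237 with FPKM as deposited (which shifts the median of all genes to 0.12, against -0.01 after scaling), 13 with no filter on low values and 13 with no replicate block, that is, without pairing the libraries of a line. It was 39, 50 and 68 with a pseudocount of 0.1, a mean filter of 5 FPKM and no robust option, and 32 to 99 with 1 line left out. Calls lower in treated cells, 0 as reported, numbered 44 with FPKM as deposited, 12 without KYSE30, 6 without KYSE180, and 2 with the mean filter or without the robust option. With the FPKM as deposited, list calls were 3 signalling genes, 6 sensors, 3 co-induced genes and 3 negative regulators in place of 1, 1, 0 and 1. The 13 interferon-stimulated genes called were 12 to 20 with 1 line left out. The cause of these shifts was not tested. The knockdown count stayed at 0 under each alternative. No member passed either filter in the interferon experiment, so members have values there only without one. The alternatives combined with it, chosen after seeing the data, called none of them, with adjusted p of 0.551 to 1 over the 4 members above 0, and IFNB1 could not be fitted without KYSE450. The KYSE30 knockdown differences of the 4 members kept their sign with FPKM as deposited and with a pseudocount of 0.1, between -1.76 and -2.32. Of the 8 most similar genes, 6 stayed among the top 8 when members' FPKM were summed. Depth is unknown, so the counting error of levels near 0 is unknown too.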

Other observations

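Genes annotated as protein-coding within 100 kb of the members were looked at for the same difference between knockdown and vector control cells. IFNL4, which lies there too but is not annotated as coding in GENCODE release 29, was lower in knockdown KYSE30 with the values given above. Around the lambda genes, LRFN1 was at 9.52 FPKM in knockdown and 15.3 FPKM in vector control KYSE30, and at 19.3 FPKM in knockdown and 12.8 FPKM in vector control KYSE180. SAMD4B was at 48.2 FPKM in knockdown and 41.2 FPKM in vector control KYSE30, and PAF1 at 44.2 FPKM in knockdown and 22.0 FPKM in vector control KYSE30. PAK4 was at 71.6 FPKM in knockdown and 63.3 FPKM in vector control KYSE30. NCCRP1, SYCN and GMFG were near or at 0 in all 4 libraries. Beside IFNB1, FOCAD was at 5.81 FPKM in knockdown and 4.11 FPKM in vector control KYSE30, and HACD4, IFNW1 and IFNA21 were near or at 0. MOB3B, which holds IFNK, was at 4.51 FPKM in knockdown and 5.38 FPKM in vector control KYSE30. Of the genes annotated as coding, LRFN1 alone was more than 1.5-fold lower in knockdown KYSE30 and above 1 FPKM. In the interferon experiment, on its separate scale, LRFN1 was at 0.40 FPKM in treated and 0.38 FPKM in untreated KYSE30. There PAK4 was at 8.46 FPKM in treated and 9.04 FPKM in untreated KYSE30. PAF1, at 35.1 FPKM in treated and 35.9 FPKM in untreated KYSE30, and FOCAD, at 6.51 FPKM and 9.01 FPKM, were nearer their knockdown-experiment levels.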
